A study of Rattus norvegicus with 47 samples.

Results

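The 34 acute phase response genes described here were given as a list of plasma proteins, cytokine receptors and regulators of the hepatic response to inflammation, and each was read from the probe set of its single gene symbol with the highest mean signal. Of the 34 genes, 32 had such a probe set, out of 14217 genes named on the array. Cfb and Tf had none and are not analysed here. All 32 passed the filter on low signals in each of the 3 experiments, and none of them lay at an array's floor on any of the 47 arrays. The floor is the lowest value of an array, so a signal above it does not by itself show detection.

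Liver RNA of single female Sprague-Dawley rats of 8 weeks was hybridised to Affymetrix rat arrays. In the diet experiment the mothers were kept on a purified diet without vitamin A, and their daughters ate it from weaning on with added retinol or none. The 5 deficient rats had 0 mg of retinol per kg of diet, 7 marginal rats had 0.4 mg, 6 adequate rats had 4 mg and 2 supplemented rats had 100 mg. In the time course all rats, controls included, were vitamin A-deficient. Vehicle was given to 3 of them (time 0 h) and about 100 ug of all-trans-retinoic acid (RA), the active metabolite of retinol, to the others, of which 3 were examined at 3 h, 3 at 6 h, 4 at 10 h and 3 at 16 h. In the intravenous experiment all rats ate a stock diet, were given an oil vehicle, fasted, and were operated on under isoflurane. Into an iliac vein 2 of them received vehicle (0 min) and 9 about 25 ug of albumin-bound RA, with livers of 3 rats taken at each of 30, 60 and 90 min. The sample titles call the controls of both RA experiments untreated, while the treatment notes describe a vehicle, and they are called vehicle here. Because the controls were taken at 0 min, RA and the time since anaesthesia and incision cannot be told apart in that experiment, and RA and time since dosing cannot be told apart in the time course. Each level below is a log2 signal relative to the median of its array. Each difference is a difference of such levels with the standard error (SE) of the limma fit, and a call is a Benjamini-Hochberg adjusted p under 0.05 over all probe sets tested.

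The acute phase response is the change in liver output of plasma proteins that follows infection or injury. IL-6 and related cytokines act through the shared receptor subunit gp130 (Il6st), Jak kinases and STAT3. IL-1 acts through Il1r1 and NF-kB, and the C/EBP factors and glucocorticoids act with both. Positive acute phase proteins such as alpha-2-macroglobulin, orosomucoid, haptoglobin and fibrinogen rise, and negative ones such as albumin fall. In the rat alpha-2-macroglobulin is a strongly inducible protein, while C-reactive protein is abundant without inflammation.

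Hepatocyte markers were high in every group, with a mean level over 7 matched markers of 7.21 to 8.29 on the single arrays, and the neutrophil markers were low (-2.10 to -0.38 over 8 matched markers). The mean correlation of an array with the others of its experiment was 0.773 to 0.847 in the diet experiment, 0.662 to 0.799 in the time course and 0.889 to 0.904 in the intravenous experiment. Deficient replicates 1, 2 and 5 and adequate replicate 5 stood apart in the diet experiment, and 16 h replicates 1 and 2 stood apart in the time course. Over the members, deficient replicate 1 was the lowest of its group for 24 of 32 genes and deficient replicate 5 the highest for 16. Among the 16 h arrays replicate 3 was the highest for 22 of 32. The GAPDH 3'-minus-5' log2 signal, which rises with RNA breakdown, was 0.105 to 1.37 in the diet experiment, highest on adequate replicate 5. The diet arrays came in 2 runs of database identifiers, run 1 with 12 arrays and run 2 with 8, and both supplemented arrays were in run 1.

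In deficient livers 3 acute phase genes differed from adequate livers, 1 lower and 2 higher, of 32 measured, beside 1.57% of all genes called in either direction. Orm1, which encodes the lipocalin alpha-1-acid glycoprotein (orosomucoid), fell, and the protease inhibitor genes A2m and A2ml1 rose. The calls over all genes were mostly in the lower direction, 1.45% against 0.12% in the higher. The 32 members had a median difference of -0.016, and all genes one of -0.16. The members that were not called lay between -0.91 (Lcn2) and 0.79 (Lbp).

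The Orm1 promoter in RefSeq (build GRCr8, chr5:81788259-81788558, plus strand, 250 bases before to 50 after the start) is printed because Orm1 was the member called in the deficient, the supplemented against deficient and the trend comparisons. The capitals mark a glucocorticoid receptor palindrome that begins at position -130 from the start and a C/EBP match that begins at -123, which overlap.

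Orm1: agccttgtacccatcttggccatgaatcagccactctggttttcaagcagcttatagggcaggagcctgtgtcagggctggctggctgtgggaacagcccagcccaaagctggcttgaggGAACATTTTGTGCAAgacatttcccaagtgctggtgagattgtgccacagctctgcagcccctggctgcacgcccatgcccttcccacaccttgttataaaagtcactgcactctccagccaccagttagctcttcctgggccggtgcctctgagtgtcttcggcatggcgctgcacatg

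Both motifs were searched on both strands over the promoters of 27 measured members and of all 33469 RefSeq promoters of this length. The glucocorticoid palindrome was present in 0.439% of all promoters and in 2 member promoters, those of Orm1 and Serpina3n. The C/EBP letters TTNNGCAA were present in 10.6% of all promoters and in 11 member promoters. The RA receptor's direct repeat with a spacer of 5 bases was found in no member promoter and in 0.00896% of all promoters. These matches describe letters in a short window and not binding.

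Orm1 levels were 4.12, 4.78, 5.19, 6.38 and 5.53 on the 5 deficient arrays, in the order of their replicate numbers. Marginal arrays ran from 5.44 over a median of 6.49 to 7.20, adequate arrays from 6.57 over 6.80 to 7.66, and both supplemented arrays were at 7.69. All deficient arrays lay below all adequate arrays, the supplemented arrays lay just above every other array of the experiment, and the marginal arrays overlapped both neighbours. The fitted difference of deficient from adequate was -1.53 ± 0.25 (SE, adjusted p = 0.000593), a 2.89-fold lower level, with group means of 5.20 ± 0.84 (SD, n = 5) and 6.94 ± 0.42 (SD, n = 6). Within run 1 it was -1.16 and within run 2 it was -1.88, and these did not differ by the interaction test (adjusted p = 0.576). It was called in all 20 fits with 1 array left out. Without the arrays that stood apart the difference was -1.13 and was not called (adjusted p = 0.0964), and in run 1 alone it was not called either (adjusted p = 0.219).

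Over the other diet comparisons Orm1 was the only member called. Supplemented livers exceeded deficient livers by 2.02 ± 0.36 in Orm1 (adjusted p = 0.00337), the 1 call of 32 members beside 0.572% of all genes. Along the 4 diet levels taken as equal steps, Orm1 rose by 0.65 ± 0.11 per level (adjusted p = 0.0024), again the 1 call of 32 beside 0.489% of all genes. In run 1 alone the supplemented contrast gave 1.73 (adjusted p = 0.0758) and the trend 0.56 (adjusted p = 0.0604), so neither was called there. The supplemented contrast was not called without supplemented replicate 1 or without replicate 2 (adjusted p up to 0.0797) nor without the arrays that stood apart (1.54, adjusted p = 0.0541), and the trend was not called without supplemented replicate 1 (adjusted p = 0.0517). Marginal against adequate livers had 0 members called by limma, beside 0% of all genes, with 2 members at an unadjusted p under 0.05 and 0 calls with array weights. Supplemented against adequate livers likewise had 0 of 32 called, beside 0.015% of all genes, with 0 members at an unadjusted p under 0.05 and 0 calls with array weights.

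A2m, the gene of the broad-range protease inhibitor alpha-2-macroglobulin, had levels of 2.43, 2.28, 2.27, 3.31 and 2.46 on the deficient arrays. Adequate arrays ran from 0.99 over a median of 1.53 to 2.12, marginal arrays from 1.34 over 2.10 to 2.56, and the supplemented arrays were at 0.69 and 2.33. Every deficient array lay above every adequate array, with replicate 4 the highest of its group, while marginal and supplemented arrays overlapped with the deficient ones. The deficient difference was 1.12 ± 0.27 (adjusted p = 0.0283), a 2.18-fold higher level. In run 1 it was 1.32 and in run 2 it was 0.91, with an adjusted p of 0.263 and 0.171. The A2m call was also lost without the run covariate (1.04, adjusted p = 0.0977), with the run as a random block (1.07, adjusted p = 0.0573), with a prior variance that does not follow the signal level (adjusted p = 0.171), without the arrays that stood apart (1.31, adjusted p = 0.188) and without each of deficient replicates 1 and 2 and adequate replicates 1 and 6 (adjusted p up to 0.12).

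A2ml1, an inhibitor of the same family, gave 1.76, 0.17, 2.98, 2.33 and 1.86 on the deficient arrays. Marginal arrays ran from 0.37 over a median of 1.04 to 1.39, adequate arrays from -0.64 over -0.098 to 0.86, and the supplemented arrays were at 0.12 and 0.09. Deficient replicate 2 fell within the adequate range and the other deficient arrays lay above it. A2ml1 was 1.91 ± 0.38 higher in deficient than in adequate livers (adjusted p = 0.00485). It was 2.09 higher within run 1 and 1.79 higher within run 2, neither called alone (adjusted p = 0.0913 and 0.11). With a prior variance that does not follow the signal level it was not called (adjusted p = 0.0583), and it was 2.68 higher without the arrays that stood apart (adjusted p = 0.00148).

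**Figure D1:**
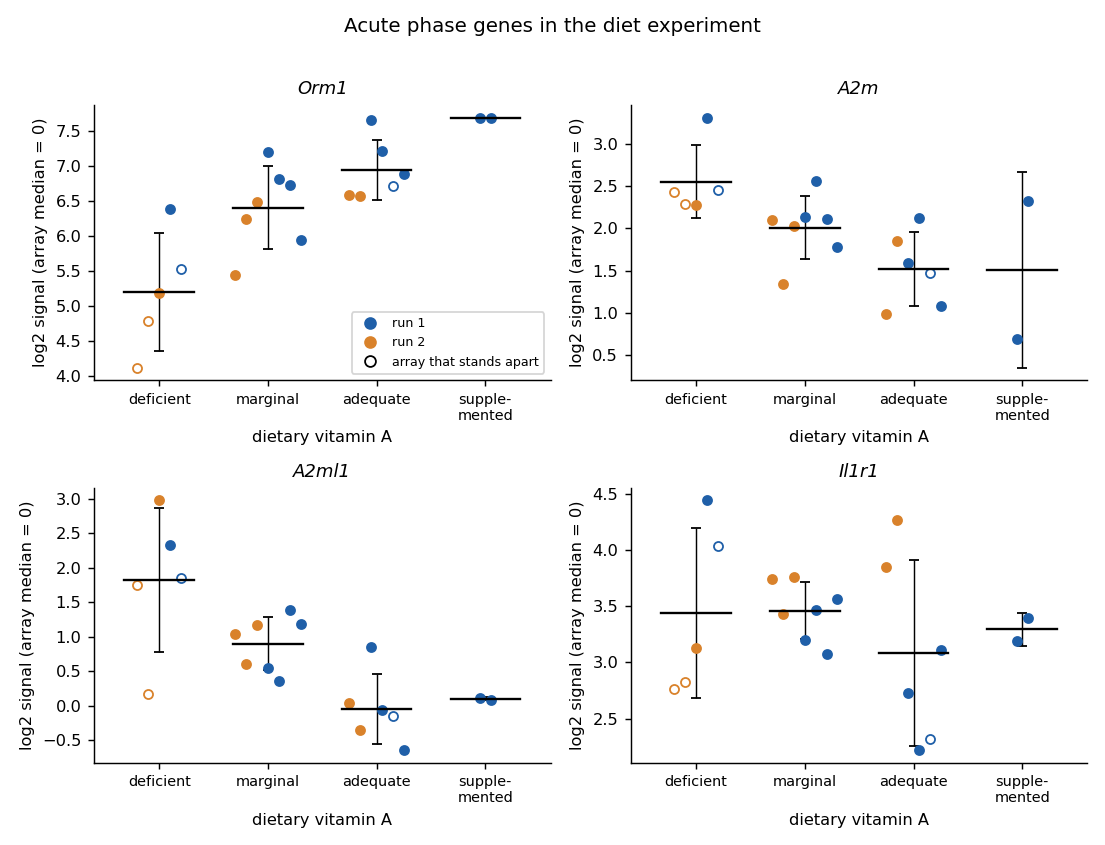
Log2 signal of Orm1, A2m, A2ml1 and Il1r1 (y axis, array median at 0) on each of the 20 diet arrays (x axis, dietary vitamin A), in blue for run 1 and orange for run 2, open for arrays that stood apart. Bars are group means ± SD. Orm1 rises from deficient to supplemented, A2m and A2ml1 are higher in deficient than in adequate livers, and Il1r1 moves one way in run 1 and the other in run 2.

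The bulk of the acute phase plasma proteins did not pass the test for deficiency. The 3 fibrinogen chain genes Fga, Fgb and Fgg, which form the clot, differed by 0.14, 0.16 and 0.028. Haptoglobin (Hp) and hemopexin (Hpx), which bind free haemoglobin and haem, differed by 0.043 and -0.073. The complement gene C3 differed by -0.13, and the regulators C4bpa and C4bpb by -0.21 and -0.29. Albumin (Alb), a negative acute phase protein, differed by 0.20 ± 0.37. Of the 32 members 11 lay within 2 log2 units of the highest signal on every diet array, and whether such high signals narrow a difference was not tested. Among the regulators Stat3 differed by 0.079, Cebpb by -0.52, Cebpd by 0.22 and Socs3, the feedback inhibitor of Jak signalling, by -0.58 ± 0.68. These values come from the fit over both runs, and 11 of the 32 members had the same sign in both, a count not taken over all genes. In run 1 and run 2 Fga differed by 0.53 and -0.18, Hp by 0.45 and -0.25, and C3 by 0.23 and -0.39. Alb differed by 0.67 and -0.11, and Stat3 by 0.75 and -0.64. Lbp, which binds bacterial lipopolysaccharide, was at 0.79 ± 0.24 (adjusted p = 0.128). Lbp was called in run 1 alone (1.38, adjusted p = 0.0297) and without the arrays that stood apart (1.14, adjusted p = 0.0303). After quantile normalization Lbp and Serpina3n were called higher in deficient livers as well, at 1.02 and 0.62, so that 4 members were higher and 1 lower there.

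**Figure D2:**
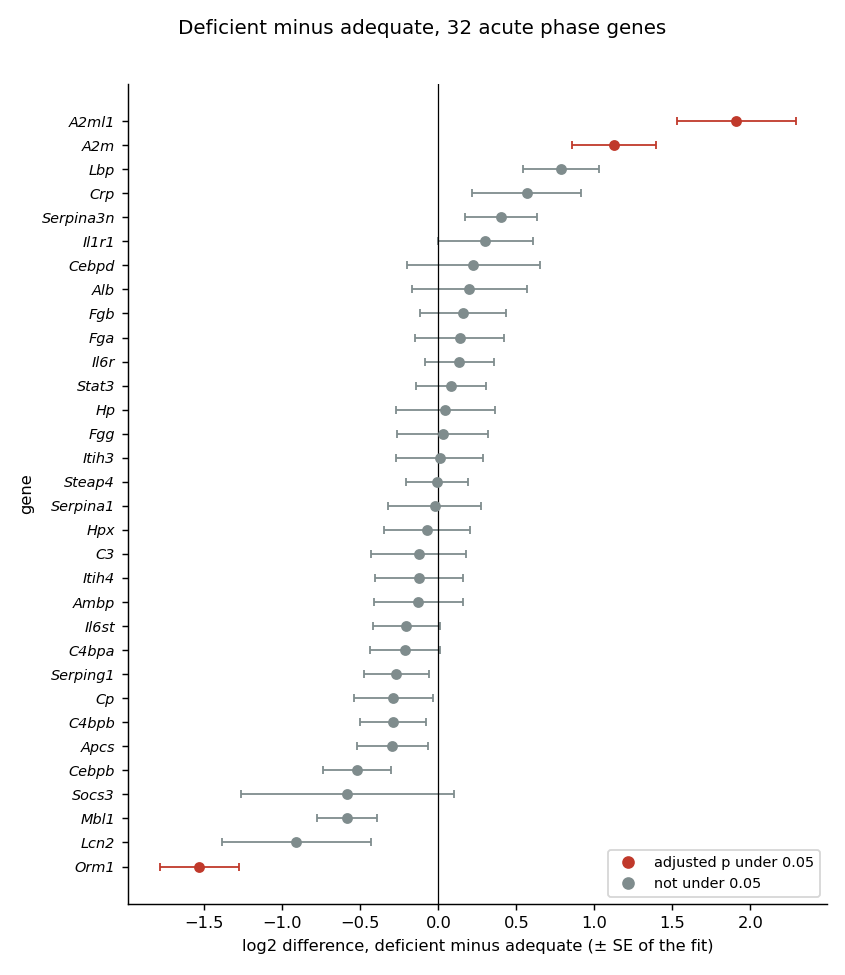
Difference in log2 signal of deficient minus adequate livers (x axis, ± SE of the fit) for the 32 measured acute phase genes (y axis), with called genes in red. A2ml1 and A2m lie at the positive end and Orm1 at the negative end, while the fibrinogen, haptoglobin and complement genes lie near 0 in this fit over both runs.

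The regulators showed wide ranges in the diet experiment. Stat3, the transcription factor of IL-6 signalling, gave 3.16, 3.58, 3.91, 5.66 and 4.26 on the deficient arrays and 4.08 to 4.27 on the adequate arrays around a median of 4.22. Deficient replicate 4 was the highest Stat3 array of the experiment and replicate 1 the lowest, and the deficient range enclosed the adequate one. Cebpb, a C/EBP activator of acute phase promoters, gave 1.96, 1.67, 2.52, 3.58 and 3.97 in deficient livers and 3.10 to 4.26, median 3.56, in adequate livers. The low Cebpb values in deficient livers were those of run 2. Cebpd, its inflammation-induced relative, gave 1.29, -0.14, -0.07, 1.38 and 0.63 in deficient livers and -0.82 to 1.14, median 0.86, in adequate livers, which overlapped. Socs3 gave -1.32, -1.44, -2.64, 0.18 and -0.51 in deficient livers and -2.42 to 0.49, median -0.15, in adequate livers, and had the widest pooled SD of the members in this experiment (1.17, against a median of 0.45).

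Il1r1, the signalling receptor of IL-1, was the 1 member of 32 called in the interaction test of deficiency and run, beside 0.0544% of all probe sets. In that test 8 members, Il1r1 included, had an unadjusted p under 0.05. The deficiency difference had the same sign in both runs for 11 of the 32. The counts by unadjusted p and by sign were not taken over all genes, so they show nothing particular to the members. Il1r1 levels in run 1 were 4.44 and 4.03 on the deficient arrays and 2.22 to 3.11 on 4 adequate arrays. In run 2 they were 2.76, 2.83 and 3.12 on the deficient arrays and 3.84 and 4.26 on the adequate arrays. The groups did not overlap in either run, and they stood in opposite order. The difference was 1.64 in run 1 and -1.15 in run 2, each called within its run (adjusted p = 0.00515 and 0.0157). They differed by -2.79 ± 0.36 in the interaction test (adjusted p = 0.000256), so the pooled value of Il1r1 has no single direction. The other 2 Il1r1 probe sets had differences of 2.43 and 0.92 in run 1 and 0.65 and -0.013 in run 2, with no test. For marginal against adequate livers 0 of 32 members depended on the run, beside 0% of all probe sets (limma interaction, with 1 member at an unadjusted p under 0.05 and 0 with array weights).

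Of the related genes listed around the members, few changed with deficiency. In the list of negative acute phase proteins and plasma carriers 1 of 18 tested genes rose, the thyroxine carrier gene Serpina7 (1.98 ± 0.38, adjusted p = 0.00319), and 1 fell, the apolipoprotein gene Apoa4 (-1.87 ± 0.35, adjusted p = 0.00213). Among 43 genes of IL-6, IL-1 and TNF signalling 1 fell, the leukaemia inhibitory factor receptor gene Lifr (-2.65 ± 0.49, adjusted p = 0.00189). Among 24 other inducible genes of inflammation 1 fell, the hepatokine gene Fgl1 (-1.70 ± 0.28, adjusted p = 0.000484). In the complement and coagulation list 0 of 30 were called, with a median of -0.23 (limma, as for all lists). Fgl1 also stood 2.26 ± 0.39 higher in supplemented than in deficient livers (adjusted p = 0.00262). Of the stellate cell markers 1 of 10 fell, the retinol-esterifying enzyme gene Lrat (-2.89 ± 0.39, adjusted p = 2.72e-05). In the other marker lists 0 were called, of 7 for hepatocytes, 9 for Kupffer cells and macrophages, 5 for neutrophils, 6 for endothelium, 2 for B cells, 9 for T and NK cells, 3 for erythroid cells and 4 for cholangiocytes. The mean Kupffer marker level ran from 2.16 to 4.06 on the deficient arrays and from 3.08 to 3.81 on the adequate arrays, and its part in the member values was not tested.

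RA given to deficient rats left the members uncalled until 16 h on the probe set used for each gene. At 3 h limma called 0 of 32, beside 0.103% of all genes, with 0 members at an unadjusted p under 0.05 and 0 calls with array weights. At 6 h it called 0, beside 0.279% of all genes, with 5 members at an unadjusted p under 0.05 and 1 call with array weights (Steap4, -1.17). At 10 h it called 0, beside 0.704% of all genes, with 5 members at an unadjusted p under 0.05. The array-weighted fit called 4 members lower at 10 h, C4bpb, Stat3, Steap4 and Il6r, and without the 16 h arrays that stood apart Steap4 (-1.26) and Il6r (-1.07) were called.

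At 16 h the livers had lower signals of 8 acute phase genes and a higher signal of Alb than vehicle livers, of 32 measured, beside 8.51% of all genes called in either direction and 8.29% called lower. The 8 were the cytokine pathway genes Stat3 and Il6st, the metalloreductase gene Steap4, the inhibitor genes Serpina3n and Serping1, the complement regulators C4bpa and C4bpb, and Crp. The members moved with the other genes tested: the median difference over all genes that passed the filter was -0.49, and over the members -0.54. Each array's median over all its probe sets was set at 0, so these differences are relative to that median. Steap4, Serpina3n, C4bpa, Serping1 and Crp were also called lower after quantile normalization, which brought the median over all probe sets to -0.060, and Fga, Fgb and Fgg were called lower there (-0.48, -0.62 and -0.36), while Stat3, Il6st, C4bpb and Alb were not called; that split was 8 lower and 0 higher. Without 16 h replicates 1 and 2, which stood apart and left 1 array at that time, 0 members were called on these probe sets, and the members' median was 0.057. With 1 array left out, 2 were called without 16 h replicate 1, 2 without 16 h replicate 2, 3 without vehicle replicate 2, 2 without vehicle replicate 3 and 15 without 16 h replicate 3. Serpina3n and Steap4 were called in all 16 such fits. With a prior variance that does not follow the signal level limma called 0 of the 32.

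**Figure D3:**
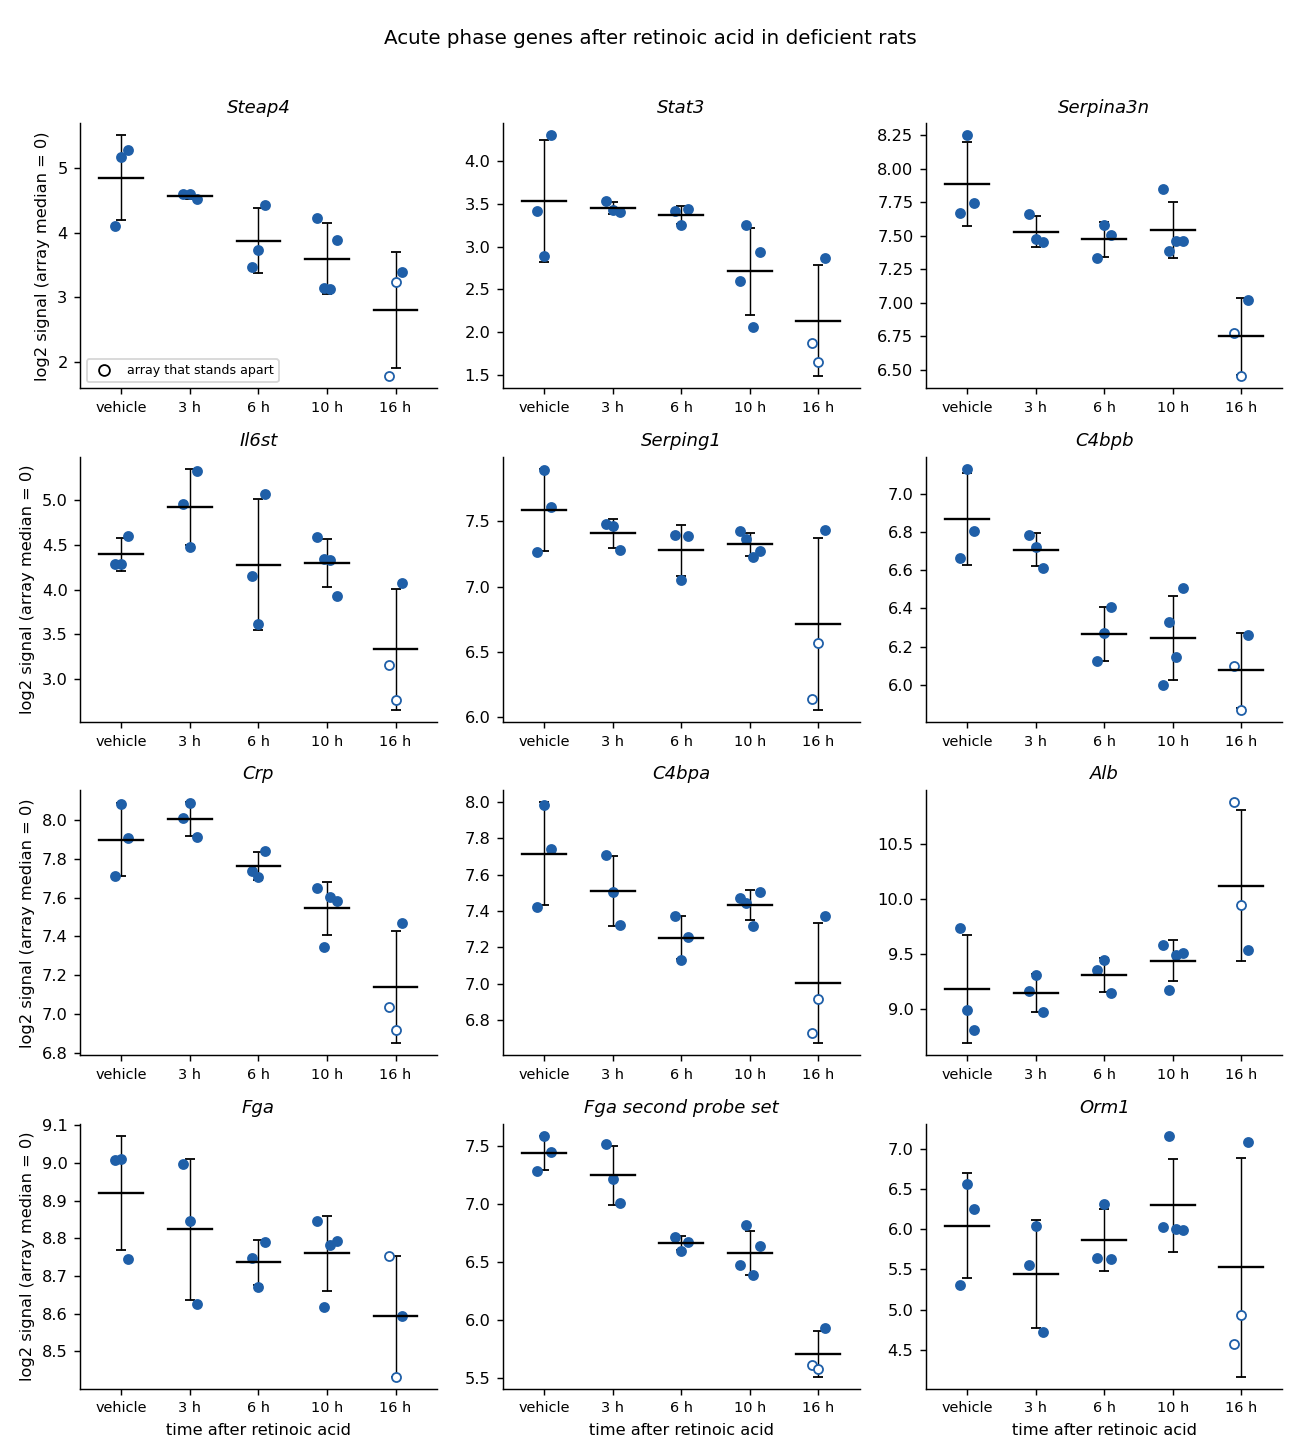
Log2 signal (y axis, array median at 0) of the 9 members called at 16 h, both Fga probe sets and Orm1 on the 16 arrays of the RA time course (x axis, vehicle or hours after RA), with group means ± SD and open points for 16 h replicates 1 and 2. The second Fga probe set is below vehicle on every array from 6 h on, while Serping1 and Il6st are low mainly on the open points.

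Steap4, a metalloreductase that is induced by inflammatory cytokines, and Serpina3n, an inhibitor of serine proteases and a STAT3 target in liver, had the smallest adjusted p among the 16 h calls. Their RefSeq promoters (build GRCr8) are printed because both fell and both hold the letters TTCNNNGAA of a STAT site, which are present in 8.87% of all promoters and in 6 member promoters, those of C4bpb, Fga, Fgb, Itih4, Serpina3n and Steap4. In Serpina3n (chr6:129088142-129088441, plus strand) the capitals mark a STAT match at -123 and a glucocorticoid palindrome at -78. In Steap4 (chr4:27054720-27055019, minus strand) they mark an NF-kB match at -178, a STAT palindrome at -66 and a C/EBP match at -37.

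Serpina3n: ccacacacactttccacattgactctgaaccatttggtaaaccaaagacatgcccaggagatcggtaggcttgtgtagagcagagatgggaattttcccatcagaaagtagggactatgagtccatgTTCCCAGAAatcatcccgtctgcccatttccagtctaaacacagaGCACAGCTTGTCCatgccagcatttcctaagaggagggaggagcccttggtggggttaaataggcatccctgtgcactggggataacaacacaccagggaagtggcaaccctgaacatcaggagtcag

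Steap4: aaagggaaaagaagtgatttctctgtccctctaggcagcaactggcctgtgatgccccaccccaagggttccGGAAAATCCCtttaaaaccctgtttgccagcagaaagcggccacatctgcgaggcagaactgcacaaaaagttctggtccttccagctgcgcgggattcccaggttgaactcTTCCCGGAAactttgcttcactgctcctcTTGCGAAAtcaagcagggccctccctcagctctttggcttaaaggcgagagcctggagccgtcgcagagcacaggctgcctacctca

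The stricter STAT palindrome TTCCNGGAA was present in 1.27% of all promoters and in those of Fga and Steap4 among the members. The NF-kB motif was searched in 2 spellings, which were present in 1.3% and 1.53% of all promoters. Among the member promoters 2 held the first, those of Lcn2 and Steap4, and 1 held the second, that of Steap4, where both spellings match at 1 place.

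Steap4 levels were 4.11, 5.18 and 5.28 on the vehicle arrays and 1.77, 3.23 and 3.40 on the 16 h arrays. In between they were 4.60, 4.59 and 4.52 at 3 h, 3.47, 3.73 and 4.44 at 6 h, and 4.24, 3.15, 3.12 and 3.89 at 10 h. All 16 h arrays lay below all vehicle and 3 h arrays, replicate 1 lowest, and the 10 h arrays reached into the vehicle range with 1 array. The 16 h difference was -2.05 ± 0.36 (adjusted p = 0.00177), and without 16 h replicates 1 and 2 it was -1.46 (adjusted p = 0.122).

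Serpina3n levels were 7.67, 8.25 and 7.75 with vehicle and 6.78, 6.45 and 7.02 at 16 h. At 3, 6 and 10 h they ranged from 7.33 to 7.85, so all 3 of the 16 h arrays were the lowest of the course. The difference was -1.14 ± 0.21 (adjusted p = 0.00278), and with the 1 remaining 16 h array it was -0.87 (adjusted p = 0.192). Crp, the gene of the pentraxin C-reactive protein, gave 7.71, 8.08 and 7.91 with vehicle, 7.65, 7.34, 7.60 and 7.58 at 10 h and 7.03, 6.92 and 7.47 at 16 h. The 16 h and vehicle arrays did not overlap, with a difference of -0.76 ± 0.20 (adjusted p = 0.0218), or -0.43 (adjusted p = 0.706) with the 1 remaining array.

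Of the genes that carry the IL-6 signal, Stat3 and Il6st were called lower at 16 h and Il6r was not. Stat3 gave 3.42, 2.89 and 4.30 with vehicle, 3.53, 3.42 and 3.40 at 3 h, 3.42, 3.26 and 3.44 at 6 h, 2.60, 3.25, 2.06 and 2.94 at 10 h, and 1.87, 1.65 and 2.87 at 16 h. Replicate 3 at 16 h lay just under the lowest vehicle array and the other 16 h arrays lay far under it. The difference was -1.41 ± 0.34 (adjusted p = 0.0147). The second Stat3 probe set differed by -1.70 ± 0.31 (adjusted p = 0.00276). Il6st, which encodes gp130, gave 4.29, 4.29 and 4.60 with vehicle and 3.15, 2.76 and 4.08 at 16 h, a difference of -1.06 ± 0.31 (adjusted p = 0.0396). For both genes the call was lost without replicates 1 and 2 (-0.66 for Stat3 and -0.32 for Il6st, adjusted p = 0.722 and 0.871). The IL-6 receptor gene Il6r was not called (-0.93 ± 0.37, adjusted p = 0.134), with 16 h levels of 1.57, 1.56 and 3.07.

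C4bpb and C4bpa encode the chains of the inhibitor C4b-binding protein. C4bpb gave 6.66, 7.13 and 6.81 with vehicle, 6.12, 6.27 and 6.41 at 6 h, 6.00, 6.33, 6.15 and 6.51 at 10 h and 6.10, 5.87 and 6.26 at 16 h. All arrays from 6 h on lay below all vehicle arrays, and the difference was -0.60 at 6 h (adjusted p = 0.509), -0.62 at 10 h (adjusted p = 0.158) and -0.79 ± 0.20 at 16 h (adjusted p = 0.0184). C4bpa gave 7.42, 7.99 and 7.74 with vehicle and 6.73, 6.91 and 7.37 at 16 h, with replicate 3 just under the lowest vehicle array, and differed by -0.71 ± 0.21 (adjusted p = 0.0381). Serping1, the C1 inhibitor gene, gave 7.26, 7.89 and 7.61 with vehicle and 6.14, 6.57 and 7.43 at 16 h, so that replicate 3 lay within the vehicle range. Its difference was -0.87 ± 0.24 (adjusted p = 0.0301), and -0.15 without replicates 1 and 2 (adjusted p = 0.918). With the 1 remaining array C4bpb was at -0.61 (adjusted p = 0.48) and C4bpa at -0.34 (adjusted p = 0.782).

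Alb, the albumin gene, gave 9.74, 8.99 and 8.81 with vehicle and 10.88, 9.95 and 9.54 at 16 h, which overlapped. It was 0.94 ± 0.28 higher (adjusted p = 0.0393), but only 0.27 after quantile normalization (adjusted p = 0.231) and 0.36 without replicates 1 and 2. The Alb call was lost in 11 of the 16 fits with 1 array left out. It was also lost with the mean of the gene's probe sets and with a prior variance that does not follow the signal level. Alb was the probe set with the highest signal on 11 of the 47 arrays, 2 of the 3 at 16 h among them, and the highest signal of an array was 9.63 to 10.88 at 16 h and 9.07 to 9.74 with vehicle. The part of this spread in the Alb call was not tested.

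The Fga probe sets disagreed. Fga encodes the fibrinogen alpha chain, and the probe set of the rule was not called at 16 h (-0.33 ± 0.20, adjusted p = 0.363). The second Fga probe set, singled out after its values were seen, gave 7.28, 7.58 and 7.45 with vehicle, 7.52, 7.21 and 7.01 at 3 h, 6.72, 6.60 and 6.67 at 6 h, 6.48, 6.82, 6.39 and 6.63 at 10 h, and 5.61, 5.58 and 5.93 at 16 h. From 6 h on every array lay below every vehicle and 3 h array, and the 16 h arrays lay below all others, replicate 3 included. The difference was -0.86 ± 0.18 at 10 h (adjusted p = 0.0207) and -1.73 ± 0.20 at 16 h (adjusted p = 1.35e-05). At 16 h it was called in every alternative run for it, with an adjusted p of 6e-07 to 0.0243, and was -1.51 without replicates 1 and 2 (adjusted p = 0.00249). The 10 h call was lost with a prior variance that does not follow the signal level (adjusted p = 0.441) and without 10 h replicates 1, 3 or 4 or vehicle replicates 2 or 3 (adjusted p up to 0.161). In the diet experiment the same probe set differed by 0.49 ± 0.22 between deficient and adequate livers (adjusted p = 0.346). There it was called higher in deficient livers after quantile normalization (0.76, adjusted p = 0.00156) and in run 1 alone (1.13, adjusted p = 0.029). In the same 2 settings it was called lower in supplemented than in deficient livers (-1.16, adjusted p = 0.0012, and -1.38, adjusted p = 0.0218). A second ceruloplasmin (Cp) probe set also differed at 16 h, by -1.03 ± 0.31 (adjusted p = 0.0424), while that of the rule was not called. The further probe sets given at 16 h are a selection, those of Stat3, Fga and Cp. Cp and Fgb each have 3 probe sets and Il6st has 4, and their remaining ones are not described here.

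The genes that marked deficiency did not pass the test after RA in the fit with all arrays. Orm1 gave 5.31, 6.57 and 6.25 with vehicle, 6.02, 7.16, 6.00 and 5.99 at 10 h and 4.57, 4.93 and 7.09 at 16 h, where replicate 3 was high and the others low. A2m gave 2.70, 2.75 and 2.56 with vehicle, 3.39, 2.64 and 1.42 at 3 h, 1.79, 1.82 and 1.10 at 6 h, 1.87, 1.48, 2.52 and 2.60 at 10 h, and 2.19, 0.87 and 1.32 at 16 h. All A2m values at 6 h and 16 h lay below the vehicle values, with differences of -1.10 ± 0.42 (adjusted p = 0.724) and -1.21 ± 0.42 (adjusted p = 0.0794). A2ml1 gave 2.30, 1.18 and 2.11 with vehicle and 0.80, 1.21 and 0.44 at 16 h, which overlapped (-1.05). With 16 h replicate 3 left out, Orm1 was called lower at 16 h than with vehicle (-1.29, limma adjusted p = 0.0103). With 3 h replicate 3 left out, A2m was called lower at 16 h than at 3 h (-1.56, limma adjusted p = 0.0398).

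Cebpb, Cebpd and Socs3 were not called against vehicle. Cebpb gave 2.29, 3.39 and 3.12 with vehicle, 3.43, 3.20 and 4.22 at 3 h, 3.29, 2.93 and 4.15 at 6 h, 2.29, 2.28, 2.31 and 2.23 at 10 h, and 1.82, 1.72 and 3.22 at 16 h. The 4 arrays at 10 h were close together and below every 3 h and 6 h array. Cebpd gave 0.71, 1.64 and 1.02 with vehicle, -1.02, 1.28 and 1.36 at 3 h, 0.32, 1.82 and 1.14 at 6 h, 0.00, 0.47, 1.10 and 1.17 at 10 h and 0.87, 0.88 and 1.17 at 16 h. Socs3 gave -0.14, -3.76 and -2.88 with vehicle, 0.09, -0.37 and -0.90 at 3 h, -0.14, -1.88 and -1.34 at 6 h, -0.30, -0.85, 0.47 and -3.84 at 10 h and -2.08, -2.93 and 0.01 at 16 h, a spread that covers its differences. Against 3 h the 16 h livers had 7 members lower and 1 higher, of 32, beside 12.1% of all genes and 11.8% called lower. These were Il6st, Steap4, Crp, Stat3, Serpina3n, Cebpb (-1.36 ± 0.37, adjusted p = 0.0197) and C4bpb, with Alb higher, and 0 were called without replicates 1 and 2. After quantile normalization 1 of these 8, Crp, was called (-0.55, adjusted p = 0.00384), and Fga, Fgb and Fgg were called lower in addition. Both 16 h comparisons share the 16 h arrays.

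**Figure D4:**
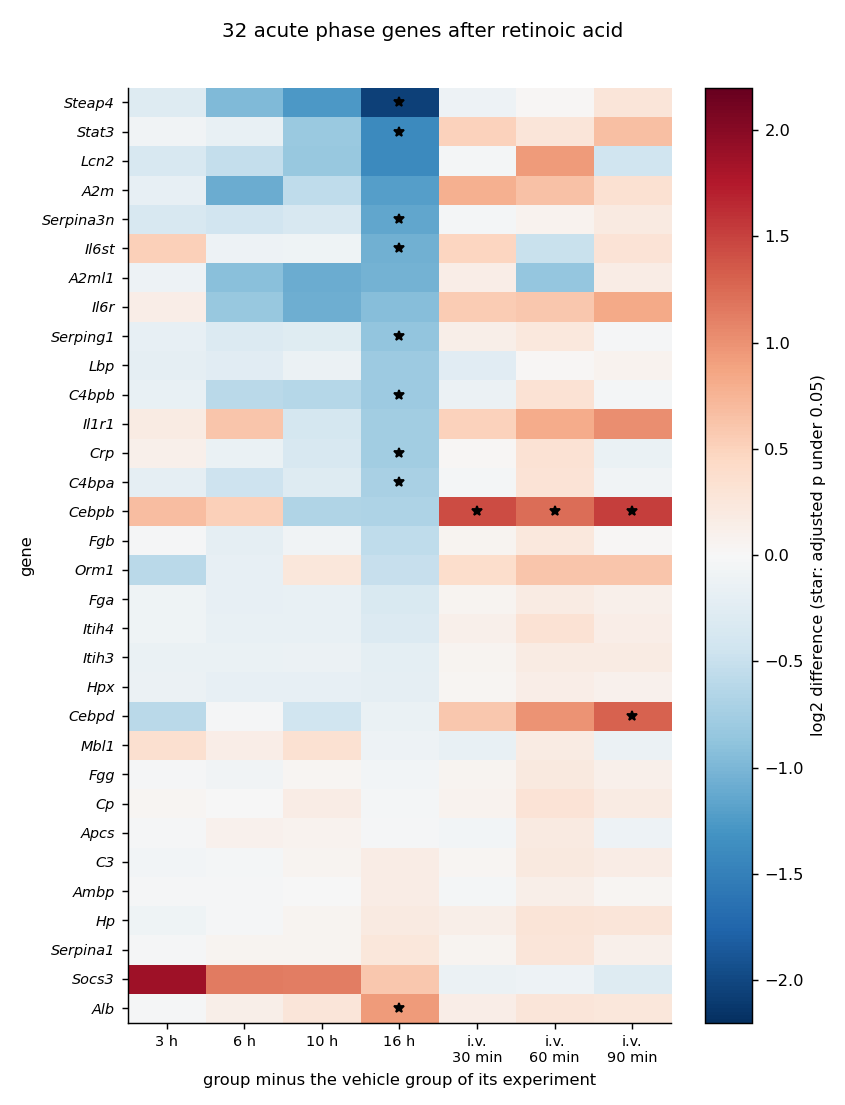
Difference in log2 signal from the vehicle group of the same experiment (colour, blue lower and red higher) for the 32 measured acute phase genes (rows, ordered by the 16 h value) at 4 times after RA and 3 times after intravenous RA (columns), with a star at each call. Stars stand at 16 h for 9 genes and in the intravenous columns for Cebpb and Cebpd.

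Of the listed genes around the members, Lifr was higher at 6 h (4.24 ± 0.68, adjusted p = 0.00139), having been lower in deficient than in adequate livers, and the TNF receptor gene Tnfrsf1a was lower at 10 h (-1.10 ± 0.26, adjusted p = 0.047). More of them were lower at 16 h, where 8.29% of all genes were called lower with a median of -0.49. The list medians were -0.61 for complement and coagulation, -0.47 for IL-6, IL-1 and TNF signalling, -0.68 for the other inducible genes and -0.19 for the negative acute phase and carrier genes. Of the complement and coagulation list 8 of 30 tested genes were lower and 0 higher, led by the fibrinolysis inhibitor gene Cpb2 (-0.86 ± 0.21, adjusted p = 0.0157) and Serpinf2 (-0.96 ± 0.24, adjusted p = 0.0182). Of 44 IL-6, IL-1 and TNF signalling genes 6 were lower, among them the kinase genes Irak1 (-1.25) and Jak1 (-0.82) and the glucocorticoid receptor gene Nr3c1 (-0.97). Of 24 other inducible genes 4 were lower, led by hepcidin (Hamp), the iron hormone that IL-6 induces. Hamp gave 8.07, 8.20 and 7.93 with vehicle, 6.26, 6.54, 5.70 and 6.51 at 10 h and 5.89, 5.87 and 7.15 at 16 h, without overlap. It was -1.81 ± 0.25 at 10 h (adjusted p = 0.000167) and -1.76 ± 0.26 at 16 h (adjusted p = 0.000411). Of the negative acute phase and carrier list 1 of 18 was lower, the growth factor carrier gene Igfals. Kupffer cell and macrophage markers moved with these: 3 of 9 were lower at 16 h (one of them, C1qb, also stands in the complement list), and their mean level was 2.49 to 3.04 on the 16 h arrays and 3.33 to 3.52 on the vehicle arrays, with no marker at the floor on all arrays of either group. Of the stellate cell markers 3 of 10 were lower and 2 higher, and of the endothelial markers 1 of 6 was lower. No neutrophil, B cell, T and NK cell, erythroid or cholangiocyte marker was called. Of 7 hepatocyte markers 1 was lower, with mean levels of 7.28 to 7.71 and 7.67 to 7.90. The part of cell composition in the members' values was not tested, and in whole liver fewer cells of a type and less RNA per cell cannot be told apart.

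In the intravenous experiment the regulator Cebpb rose at each time, Cebpd was called at 90 min, and the plasma protein genes were not called. Cebpb was the 1 member of 32 called at 30 min, beside 0.153% of all genes, and the 1 called at 60 min, beside 0.595%. At 90 min Cebpb and Cebpd were called, 2 of 32 beside 0.748% of all genes. The median member difference was 0.060, 0.25 and 0.16 at the 3 times, against -0.13, -0.12 and -0.13 over all genes.

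Cebpb levels were 2.40 and 2.50 on the vehicle arrays, 4.18, 3.43 and 4.05 at 30 min, 3.40, 4.09 and 3.54 at 60 min and 4.18, 3.87 and 3.88 at 90 min. All treated arrays lay above both vehicle arrays, and the times overlapped each other. The differences were 1.44 ± 0.23 (adjusted p = 0.0215), 1.23 ± 0.23 (adjusted p = 0.0279) and 1.53 ± 0.23 (adjusted p = 0.00608), or 2.88-fold at 90 min. The calls at 30 and 60 min were lost without either vehicle array, and that at 90 min without vehicle replicate 1. That at 30 min was also lost without 30 min replicates 1 or 3, and that at 60 min without 60 min replicates 2 or 3. With a prior variance that does not follow the signal level the 3 calls were lost (adjusted p = 0.317, 0.26 and 0.131).

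Cebpd levels were 0.99 and 0.44 with vehicle, 1.63, 1.04 and 1.25 at 30 min, 1.32, 1.84 and 1.93 at 60 min and 2.05, 1.79 and 2.18 at 90 min. All treated arrays again lay above both vehicle arrays. Its difference was 0.59 (adjusted p = 0.533), 0.98 (adjusted p = 0.159) and 1.29 ± 0.26 (adjusted p = 0.0422), and the 90 min call was lost without either vehicle array, any 90 min array, 30 min replicate 3 or 60 min replicates 2 or 3 (adjusted p up to 0.341). That call was also lost with the mean of the gene's 3 probe sets and with a prior variance that does not follow the signal level (adjusted p up to 0.607). The receptor gene Il1r1 gave 3.82 and 3.63 with vehicle and 4.26, 4.75 and 5.22 at 90 min, a difference of 1.02 ± 0.22 that was not called (adjusted p = 0.0638). Stat3 gave 3.38 and 3.39 with vehicle, 3.94, 3.84 and 3.89 at 30 min, 3.83, 3.79 and 3.33 at 60 min and 3.94, 4.05 and 4.16 at 90 min, a 90 min difference of 0.67 ± 0.15 (adjusted p = 0.0791). Il1r1 and Stat3 were called at 90 min after quantile normalization (1.17 and 0.81) and with array weights. Socs3 gave 0.47 and 0.35 with vehicle and -0.03, -0.25 and 0.69 at 90 min, which overlapped.

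**Figure D5:**
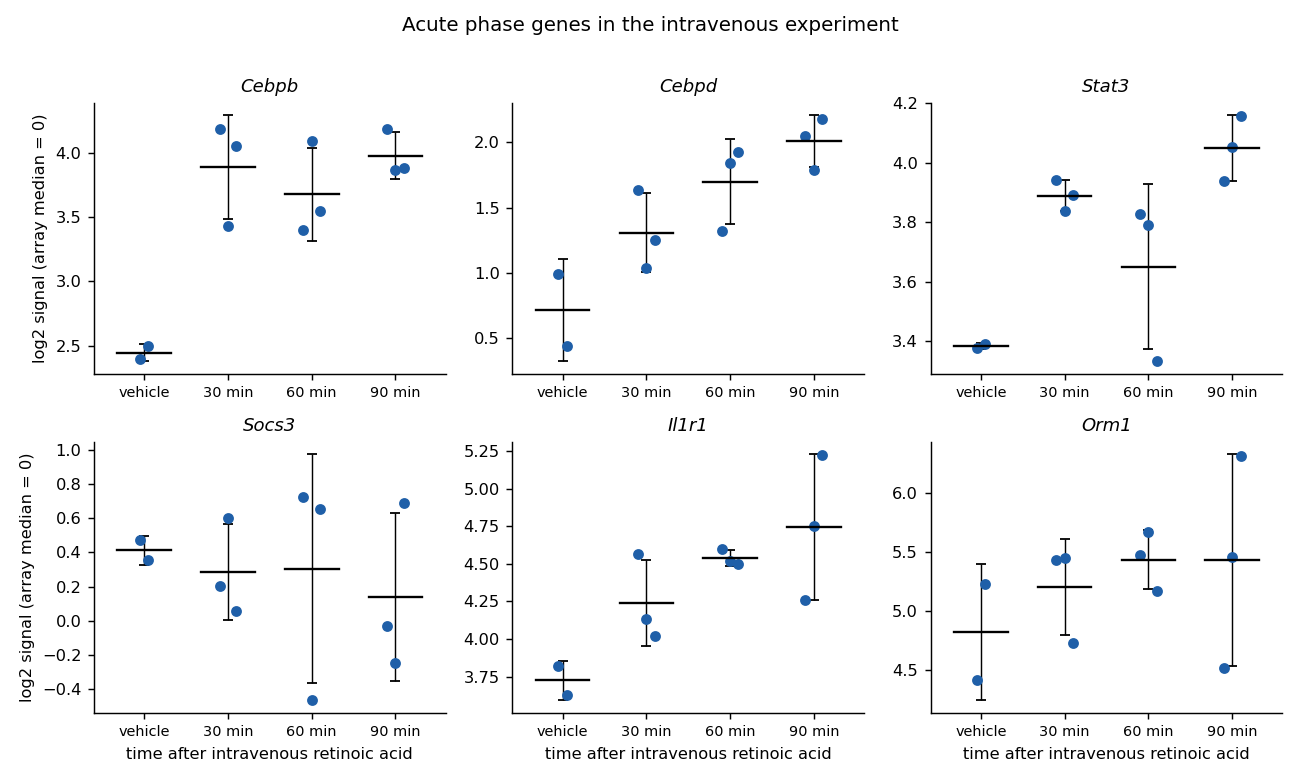
Log2 signal (y axis, array median at 0) of Cebpb, Cebpd, Stat3, Socs3, Il1r1 and Orm1 on the 11 arrays of the intravenous experiment (x axis, vehicle or minutes after RA), with group means ± SD. Every treated array of Cebpb and Cebpd lies above both vehicle arrays, while Socs3 and Orm1 overlap.

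No secreted member was called at any time after intravenous RA. At 90 min Hp differed by 0.27, C3 by 0.17, Fgb by 0.032, Serpina3n by 0.21, Crp by -0.14 and Alb by 0.25, and none was called. Of the 32 members 14 lay within 2 log2 units of the highest signal on every array here, Hp, C3, Fgb, Serpina3n and Alb among them. Whether such high signals narrow a difference was not tested. Others spread more widely. Orm1 gave 4.41 and 5.23 with vehicle and 4.52, 5.46 and 6.31 at 90 min, and A2m gave -0.82 and 0.80 with vehicle and -0.06, 0.10 and 0.91 at 90 min, both overlapping. A2ml1 lay between -2.99 and 0.33 on all arrays of the experiment. From 30 to 90 min limma called 0 of 32 members, beside 0.365% of all genes, with 3 members at an unadjusted p under 0.05 and 0 calls with array weights.

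Early inflammatory genes from the lists were high in the same livers. Cxcl1, a neutrophil chemokine, gave -3.24 and -3.41 with vehicle, -0.77, 0.53 and 0.87 at 30 min, 3.91, 2.46 and 2.59 at 60 min and 4.34, 4.48 and 4.67 at 90 min, a difference of 7.82 ± 0.44 at 90 min (adjusted p = 9.69e-07). The floors of the vehicle arrays were -4.82 and -4.41, so the size of this difference rests on low vehicle signals. The NF-kB feedback genes Nfkbia (2.34 ± 0.16, adjusted p = 4.6e-06), Nfkbiz (2.44 ± 0.21, adjusted p = 3.34e-05) and Bcl3 (2.55 ± 0.25, adjusted p = 0.000134) and the cytokine gene Il1b (2.66 ± 0.39, adjusted p = 0.00607) rose by 90 min, 4 of 40 tested genes of the signalling list with 0 lower. The transcription factor gene Fos rose at 30 min (2.65 ± 0.34, adjusted p = 0.00547) and was lower at 90 than at 30 min (-3.20 ± 0.30, adjusted p = 0.000184). Of 22 other inducible genes 3 rose by 90 min, Cxcl1, Icam1 and Ccl2. Beside these list counts, 0.51% of all genes were called higher at 90 min. The lists were chosen with earlier results of these data known, so the counts are a description and not independent support. No gene of the carrier or complement lists and no hepatocyte, Kupffer cell, endothelial, B cell, T and NK cell, erythroid or cholangiocyte marker was called at 90 min, and of the stellate cell markers 1 of 10 rose, Lrat (0.88 ± 0.18, adjusted p = 0.0476). Of the neutrophil markers 1 of 4 tested rose at 90 min, S100a9 (2.30 ± 0.37, adjusted p = 0.0114), and the mean level over 8 matched markers was -2.10 to -1.26 with vehicle and -0.71 to -0.38 at 90 min. The part of these cells in the member values was not tested.

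Levels of the diet-linked members can be set side by side across experiments only as a description, since experiment and diet cannot be told apart. A2m was 2.67 ± 0.10 (SD, n = 3) in the deficient vehicle rats of the time course, 2.55 ± 0.43 (SD, n = 5) in deficient and 1.52 ± 0.44 (SD, n = 6) in adequate rats of the diet experiment, and -0.013 ± 1.14 (SD, n = 2) in the stock-fed vehicle rats. A2ml1 followed the same order, with 1.86, 1.82, -0.047 and -0.20. Orm1 was 6.04 ± 0.65 (SD, n = 3) in deficient vehicle rats, 5.20 in deficient and 6.94 in adequate rats, and 4.82 ± 0.58 (SD, n = 2) in stock-fed vehicle rats, so its lowest mean was not in a deficient group.

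The members differed in how closely replicates agreed. The pooled SD within groups had a median of 0.45 in the diet experiment, 0.27 in the time course and 0.21 in the intravenous experiment. Lcn2, the siderophore-binding lipocalin 2, was the widest in both RA experiments (2.23 and 1.06), with time course levels from -3.84 to 2.03, and no difference of Lcn2 was called. C4bpa, Fgb and Itih4 were the tightest of the 3 experiments in turn (0.30, 0.12 and 0.089). Of the 32 members, 11 lay within 2 log2 units of the highest signal of every array in the diet experiment, 6 in the time course and 14 in the intravenous experiment.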

How the data were processed

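Per the labels, each array held liver RNA of 1 rat, and the authors deposited a table of log2 signals of 31099 probe sets with each array's median at 0 and 1 floor value per array. GCOS is named in the submitters' processing notes, without a version. The scaling steps are not given in the sources used here. Gene symbols came from the platform annotation: 20832 probe sets had 1 symbol, 436 several and 9831 none, and a gene took its probe set with the highest mean.

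Of these, 57 control probe sets were left out. Tests took probe sets that passed the 40th percentile of an array's signals on 2 or more arrays in the experiment (27595, 28869 and 22763). limma 3.58.1 in R 4.3.3 fitted group means per experiment, with the run as a covariate in the diet experiment, and eBayes followed the signal trend. Calls had a Benjamini-Hochberg adjusted p under 0.05 over all probe sets tested. The fit was tested on simulated data. Tables and figures used Python 3.11.15, pandas 2.3.3 and matplotlib 3.10.9.

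The members and lists were chosen with earlier results of these data known. The rule was to give values on every array for members called in a contrast and for A2m, Stat3, Socs3, Cebpb and Cebpd. In the text some groups of these members are given as a range or left out. Of the lists only called genes are named, at most 6 per list and contrast. Il6r, Lcn2, Il1r1 and the second Fga probe set were singled out after their values were seen. The design allowed for linear values, and the deposited values were already on a log2 scale. Same-numbered arrays did not deviate together (correlations from -0.048 to 0.055 over the 3 experiments, 0 pairs over 0.1), so the fits used no pairing by number. Such a check cannot exclude that rats were paired. An array's median signal was 10 to 69.7 times its floor. Precision is limited by how many arrays there are. Alternatives were quantile normalization, no filter, no prior trend, array weights, the mean of a gene's probe sets, replicate and run blocks, single runs, and each array left out. The fit without the arrays that stood apart was chosen after seeing the data.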

Additional observations from a re-analysis of the deposited data

Results flagged for a closer look

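Of 128 groups of a member with 4 to 10 arrays, 8 held an array far from the others, where chance gives about 1 in 20. Orm1 was 7.16 on 10 h replicate 2, with the next array at 6.02. A2m was 3.31 on deficient replicate 4, with the next at 2.46, and the deficient group stayed above the adequate one without it. Crp was 5.41 on adequate replicate 5, the array with the highest GAPDH 3'-minus-5' signal, and the next was 7.48. C3 and Serpina1 were lowest on marginal replicate 7, at 8.72 and 8.37, with the next arrays at 9.13 and 8.79. Serpina3n was 7.85 on 10 h replicate 1, above the next at 7.46. Socs3 was -2.42 on adequate replicate 4, with the next at -0.40, and Cebpd was -0.81 on marginal replicate 2, with the next at 0.84.

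Il1r1 differed between the runs of the diet experiment: its deficient-minus-adequate difference in run 2 was lower than that in run 1 by a signed -2.79 (limma interaction, adjusted p = 0.000256), and what set the runs apart was not tested.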

How the results depend on the processing

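No direction reversed in any alternative run for the counts of called members or for the members called. For deficient against adequate livers the count of 3 became 5 after quantile normalization and 1 without a prior trend, and 2 to 4 with 1 array left out. In single runs the called genes changed. In run 1 alone none of the 3 was called, and Lbp and Il1r1 were called higher. In run 2 alone Orm1 kept its call, A2m and A2ml1 lost theirs, and Il1r1 was called lower. Without the arrays that stood apart A2ml1 kept its call, Orm1 and A2m lost theirs, and Lbp was called higher. For supplemented against deficient livers the count of 1 became 2 after quantile normalization and 0 without a prior trend, with the replicate block or in run 1 alone, and 0 to 2 with 1 array left out. For the diet trend the count of 1 became 2 without the arrays that stood apart, 3 after quantile normalization, 0 without a prior trend, with the replicate block or in run 1 alone, and 0 to 2 with 1 array left out. At 6 h the count of 0 became 1 after quantile normalization (C4bpa) and 1 with array weights. At 10 h the count of 0 became 2 after quantile normalization (Mbl1 higher, Crp lower), 4 with array weights, 2 without the arrays that stood apart and 0 to 1 with 1 array left out.

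At 16 h the count of 9 became 0 without a prior trend, 0 without the arrays that stood apart and 2 to 15 with 1 array left out. For 16 h against 3 h the count of 8 became 4 after quantile normalization (Crp of the 8, with Fga, Fgb and Fgg added), 0 without a prior trend, 0 without the arrays that stood apart and 2 to 15 with 1 array left out. At 30 min and at 60 min the count of 1 became 0 without a prior trend and 0 with the replicate block, and 0 to 1 with 1 array left out. At 90 min the count of 2 became 4 after quantile normalization, 0 without a prior trend, 4 with array weights, 1 with the mean of a gene's probe sets, 1 with the replicate block and 0 to 2 with 1 array left out. The replicate block pairs arrays by number only; with it A2m lost its deficiency call (adjusted p = 0.105), Orm1 its calls for supplemented against deficient livers (adjusted p = 0.369) and for the trend (adjusted p = 0.383), C4bpa its 16 h call (adjusted p = 0.0629), C4bpb its call against 3 h (adjusted p = 0.0606), Cebpb its calls at 30 and 60 min (adjusted p = 0.0655 and 0.0704), Cebpd its 90 min call (adjusted p = 0.106) and the second Fga probe set its 10 h call (adjusted p = 0.0858). The cause of these changes was not tested.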
